A study of Mus musculus with 5 samples.

Results

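Oxidative phosphorylation was examined gene by gene in mouse hepatobiliary organoids, epithelial cultures grown from primary wild-type liver stem/progenitor cells. The members were chosen by symbol: the Ndufa, Ndufb, Ndufc, Ndufs and Ndufv subunits of complex I, Sdha to Sdhd of complex II, the Uqcr genes of complex III, Cox4 to Cox8 of complex IV, the Atp5 genes of complex V, and the protein genes of the mitochondrial genome, each annotated as protein coding. This gave 102 of the 52029 genes in the table, 89 nuclear and 13 mitochondrially encoded. They carry 101 symbols, because Atp5o is listed under 2 Ensembl identifiers, one of which had 0 counts in every library. Cox5b-ps has the symbol of a pseudogene but is annotated as protein coding, and it was kept among the members of complex IV. It had 18.3 to 46.4 counts in M9, M10, M11 and M12 and a log2 fold change of 0.53, co-culture over organoids alone. Of the 102, 94 passed the low-count filter of the test, 81 nuclear and all 13 mitochondrial.

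The respiratory chain is built from subunits of 2 genomes. Complexes I and II pass electrons from NADH and succinate to ubiquinone, complex III passes them on to cytochrome c, and complex IV passes them to oxygen. The proton gradient made by complexes I, III and IV drives ATP synthase, also called complex V. The mitochondrial genome encodes core subunits of complexes I, III, IV and V, while every subunit of complex II is nuclear. In liver, hepatocytes are rich in mitochondria and rely on the chain for the ATP used in synthesis and detoxification.

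One group held 3 libraries of organoids co-cultured with liver endothelial cells (LiECs), at passage 8 and day 10. The other held 2 libraries of organoids cultured alone, at passage 1 and day 10. Both groups were wild type and were grown in the same medium, which contained EGF, nicotinamide and Y-27632. Co-culture and passage change together, so their effects cannot be told apart. Separate cultures within a group are not stated in the labels, and a p-value here reflects only how far these libraries spread, which may be technical. Total counts were 33881617 in M9 and 35878241 in M10, both co-cultures, and 26466739 in M11 and 29195328 in M12, both organoids alone. These libraries share 1 table and carry the test. The third co-culture library, with 58853737 counts, was deposited alone with another annotation and has no test here. Its column bears a different number from the record it was filed under. It held 98 of the 102 members.

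RNA of marker genes of several cell types differed between M9 with M10 and organoids alone, in both directions. Whether the cells themselves differed, and their part in the results below, was not tested. Of 7 hepatocyte markers tested, 3 were called lower in co-culture (Alb, Trf and Hp), while Apoa1 and Ttr had positive log2 fold changes of 2.74 and 1.01 that were not called. The summed level of the list was 134 and 220 CPM (counts scaled to library size by TMM) in M9 and M10 against 602 and 1554 CPM in M11 and M12. Of 6 mesenchymal markers tested, 2 were called lower, with sums of 1.99 and 3.11 CPM in co-culture against 26.5 and 82.7 CPM in organoids alone. Of 4 macrophage markers tested, Lyz2 and Cd14 were called lower, at -5.91 and -1.22, and Csf1r and Cd68 were not called, at 0.47 and 0.79. Their sums, mostly Cd14, were 314 and 283 CPM in co-culture against 662 and 587 CPM in organoids alone. Of 10 biliary and progenitor markers, 3 were called higher (Krt7, Krt19 and Prom1) and 4 had negative log2 fold changes, the lowest that of Spp1 at -1.44, with sums of 27980 and 23172 CPM in co-culture against 13648 and 18144 CPM in organoids alone. Endothelial markers were scarce in both groups: only 3 of 14 were abundant enough to test, none was called, and the sums were 11.4 and 11.1 CPM in co-culture against 9.29 and 9.16 CPM in organoids alone. The endothelial adhesion gene Pecam1 had 2 counts in each of M9 and M10, against 1 count in M11 and 2 counts in M12, and Cdh5 had 6 and 5 counts in co-culture against 3 and 2 counts in organoids alone. Egfl7, the most abundant of the list, had 312 and 323 counts in co-culture against 182 and 212 counts in organoids alone. Stab2 had 2 and 5 counts in co-culture against 0 in organoids alone, Clec4g was at 0 in all 4 libraries, and Erg, Emcn and Lyve1 were at 0 in M9 and M10 with 3 counts or fewer in M11 and M12. In the third co-culture library the sums were 1415 CPM for hepatocyte, 8.09 CPM for mesenchymal, 424 CPM for macrophage, 11803 CPM for biliary and 7.47 CPM for endothelial markers.

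No member was called between co-culture (M9 and M10) and organoids alone. At an adjusted p of 0.05 by edgeR's quasi-likelihood test, 0 of 94 members passed, against 2.24% of all 15899 tested genes (0.994% higher, 1.25% lower). limma-voom also called 0 members, where it called 1.79% of all genes. DESeq2 called Ndufv3 higher and Cox6b2 lower, where it called 7.86% of all genes. The same pair was called without a low-count filter, where 4.92% of all genes were called. Leaving out M9 gave 2 members higher and 5 lower, with 15.7% of all genes called, and leaving out M10 gave 1 higher and 1 lower, with 6.68% called. Leaving out M11 or M12 gave 0 members. At an unadjusted p under 0.05, 8 members were higher and 2 lower, against 8.42% higher and 9.06% lower among all genes. In these bulk libraries fewer cells of a type and less RNA per cell cannot be told apart.

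The fold changes of the members were small compared with those of other genes. The log2 fold change of co-culture over organoids alone lay under 0.5 in size for 88 of 94 members, against 67.3% of all tested genes. Its 95% interval lay within 1 log2 unit of 0 for 88 of 94, against 47.8% of all genes. The median standard error was 0.16 for members and 0.27 for all genes, so the members, which are abundant, were measured more closely than most. A doubling was outside the interval for most of them. Log2 fold changes as large as -1.43 for Cox6b2 and 0.90 for Ndufv3 did not pass the test, so a member that was not called is not shown to be unchanged.

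In M9 and M10 against organoids alone, nuclear members leaned slightly upward and mitochondrially encoded members slightly downward, and the third co-culture library did not share this lean. The log2 fold change was positive for 68 of 81 nuclear members, against 50.1% of all genes, with a median of 0.13 against 0.00 for all genes (quartiles -0.31 and 0.29). It was positive for 3 of 13 mitochondrial members, with a median of -0.24. These genes share the transcription units of the mitochondrial genome, so their signs are not independent of each other. With all 5 libraries the nuclear median was 0.016 and the mitochondrial median 0.52, or 0.33 with near-identical copies added. Leaving out 1 of the 4 libraries moved the nuclear median between 0.078 and 0.22 and the mitochondrial median between -0.45 and -0.025. Groups did not overlap, with co-culture higher, for 42 of 94 members, against 24.3% of all genes. They did not overlap, with co-culture lower, for 8 members, against 25.1%. The median was 0.05 for the nuclear core subunits of complex I, 0.13 for its accessory subunits, 0.08 for complex II, 0.11 for complex III, 0.19 for complex IV and 0.17 for complex V. The cytosolic ribosome list, a comparison of mostly abundant housekeeping genes, had a median of 0.13 with 75 of 89 genes positive. It was taken by symbol (Rpl or Rps and a digit), which also takes in genes that are not ribosomal proteins, such as the kinase Rps6ka6.

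**Figure D1:**
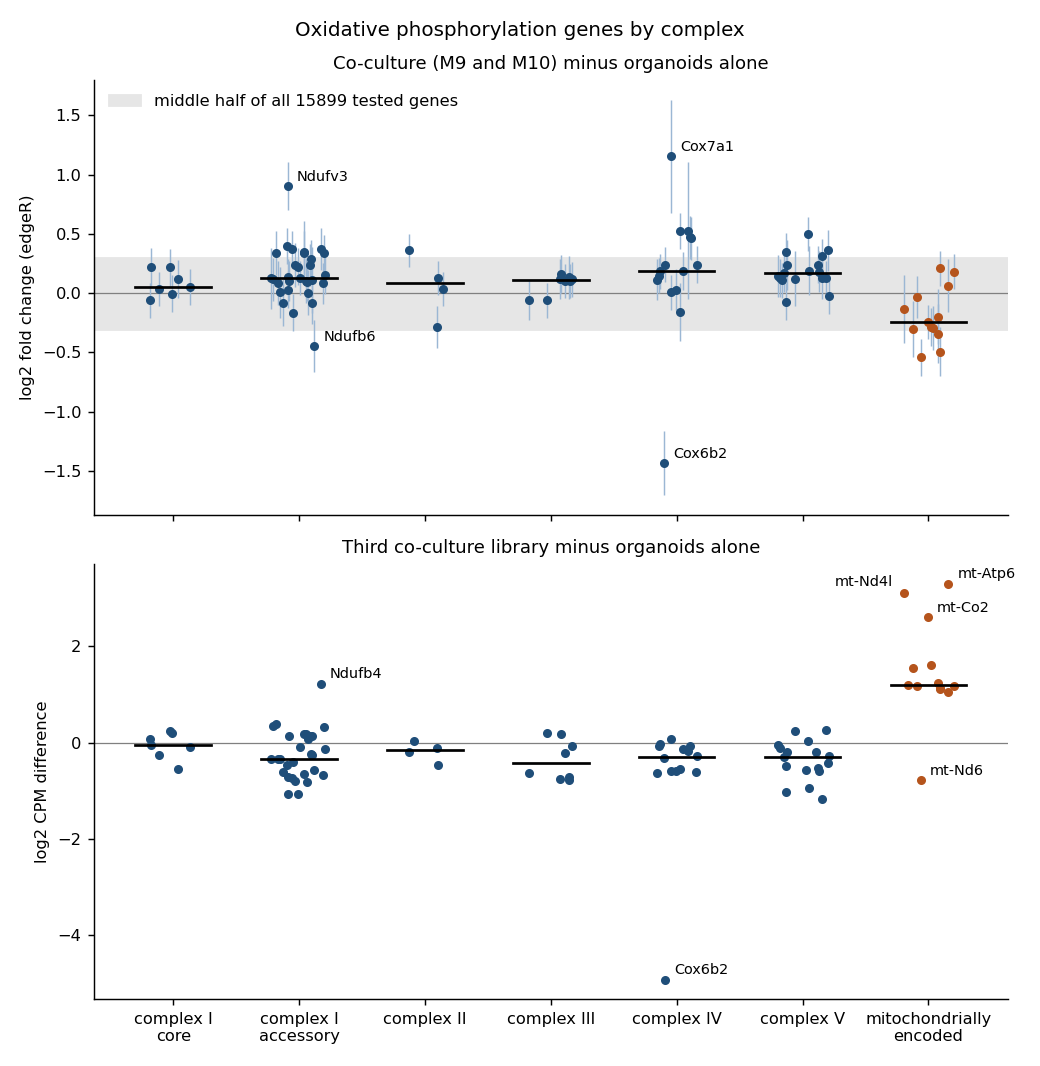
Each point is 1 member, grouped by complex along the horizontal axis; the black bar is the median of the column. Upper panel, log2 fold change of co-culture (M9 and M10) over organoids alone with its standard error, where most members lie near the middle range of all genes and Cox6b2 at -1.43 lies farthest out. Lower panel, log2 CPM difference of the third co-culture library from organoids alone, where 12 of 13 mitochondrially encoded members lie above 0 and Cox6b2 lies at -4.92.

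Complex I takes electrons from NADH. Its 7 nuclear core subunits, which carry the flavin and iron-sulfur centres, were close to level, between -0.06 for Ndufs1 and 0.22 for Ndufs8. Ndufs1, the large iron-sulfur subunit of the matrix arm, had 74.2 and 68.3 CPM in co-culture against 74.6 and 74.1 CPM in organoids alone. Its groups overlapped, and the log2 fold change was -0.06 ± 0.15 (SE).

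Among the accessory subunits, which surround the core, Ndufv3 stood out. Ndufv3, a small subunit of the NADH-oxidising module (chromosome 17, 31520115 to 31531331, GRCm38), had 62.1 and 82.6 CPM in co-culture and 35.9 and 41.5 CPM in organoids alone. Both co-culture values lay above both values of organoids alone, by 0.90 ± 0.20 log2 units (SE), with an adjusted p of 0.0945 from edgeR. It was called by DESeq2 (adjusted p = 0.0071), without M9 (log2 fold change 1.11) and without a low-count filter, and its adjusted p was 0.0516 without M10, 0.496 without M11 and 0.43 without M12. Ndufa7 and Ndufa6, accessory subunits of the matrix arm, had log2 fold changes of 0.40 and 0.34. In the third co-culture library Ndufv3 and Ndufa6 lay 0.19 and 0.32 log2 units above organoids alone, and Ndufa7 was at -0.47. Ndufb6, in the membrane arm, was lower, with 35.9 and 25.2 CPM in co-culture against 41.6 and 41.7 CPM in organoids alone, a log2 fold change of -0.45 ± 0.22 (SE) and an adjusted p of 0.382 by edgeR. It was called lower when M9 was left out (log2 fold change -0.71), and was at -1.07 in the third co-culture library. The gene shares 257 exonic bases with Smim27 on the opposite strand, and the strand setting of the counting is not known from these sources. Such overlap is common here: 42 members share exonic bases with another gene on either strand. Among them are Ndufs1 (489 bases with Ino80dos) and Uqcrc2 (504 bases with Pdzd9). Across the 30 tested accessory subunits, 15 did not overlap with co-culture higher, against 24.3% of all tested genes. With co-culture lower, 2 did not overlap, against 25.1%.

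Complex II is succinate dehydrogenase, shared between the respiratory chain and the citric acid cycle. Its 4 genes did not move as a unit. Sdhc, a membrane anchor, had 136 and 135 CPM in co-culture against 103 and 108 CPM in organoids alone, a log2 fold change of 0.36 ± 0.14 (SE). Sdhb, the iron-sulfur subunit, had 68.5 and 53.9 CPM in co-culture against 74.0 and 75.1 CPM in organoids alone, a log2 fold change of -0.28 ± 0.18 (SE). Sdha, the flavoprotein, and Sdhd, the other anchor, were at 0.13 and 0.04. Of the pair that lay farthest apart, neither Sdhc (adjusted p = 0.261) nor Sdhb (adjusted p = 0.487) passed edgeR's test. Against organoids alone, the third library had Sdhc and Sdhb at -0.11 and -0.46 log2 units.

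Among the members, those of complex III, the cytochrome bc1 complex, held the narrowest range. Its 8 nuclear members lay between -0.06 for the core protein Uqcrc1 and 0.16 for the small subunit Uqcr11. The symbol rule leaves out its cytochrome c1 gene, Cyc1, which is counted among the electron carriers below. Uqcrc1 had 186 and 174 CPM in co-culture against 178 and 197 CPM in organoids alone. Uqcrc2, the second core protein, had 129 and 118 CPM in co-culture against 113 and 117 CPM in organoids alone. These groups differed by less than the fit could resolve, with standard errors of 0.15 and 0.14 log2 units.

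Complex IV, cytochrome c oxidase, held the member that differed most. Several of its nuclear subunits exist as a general form and a form restricted to a tissue such as heart, muscle, lung or testis. Cox6b2, the testis form of a subunit at the intermembrane face (chromosome 7, 4751792 to 4753094, minus strand), had 13.8 and 8.91 CPM in co-culture and 31.2 and 30.3 CPM in organoids alone. The groups did not overlap, and the log2 fold change was -1.43 ± 0.27 (SE), adjusted p = 0.0635 by edgeR. Its adjusted p was 0.00013 by DESeq2, 0.0114 without M10 and 0.00070 without M9, but 0.31 without M11 and 0.38 without M12. The general form Cox6b1, also on chromosome 7 (30616861 to 30626151), had 185 and 160 CPM in co-culture against 138 and 155 CPM in organoids alone, a log2 fold change of 0.24 ± 0.16 (SE). Cox6b2 therefore made up 6.94% and 5.28% of the counts of both forms in M9 and M10, and 18.5% and 16.4% in M11 and M12. Exact binomial 95% intervals for these shares were 6.35 to 7.58%, 4.72 to 5.88%, 17.4 to 19.6% and 15.4 to 17.4%, which cover counting error only. In the third co-culture library Cox6b2 had 59 counts, 0.74% of both forms (interval 0.564 to 0.954%). All 3 co-culture libraries thus lay below both libraries of organoids alone for this isoform. The third library's table uses another annotation, and whether both tables count the same exons of Cox6b2 was not tested.

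The stretch from 100 to 41 bases before the RefSeq start site of each isoform gene is shown to compare their promoters, read in transcript orientation (GRCm38.p6). It lies at chr7:4753135-4753194 for Cox6b2 and at chr7:30626155-30626214 for Cox6b1, both on the minus strand. Neither gene's promoter held any of the motifs searched below.
Cox6b2: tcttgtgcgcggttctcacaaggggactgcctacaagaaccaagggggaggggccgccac
Cox6b1: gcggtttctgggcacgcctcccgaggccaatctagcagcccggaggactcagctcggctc

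**Figure D2:**
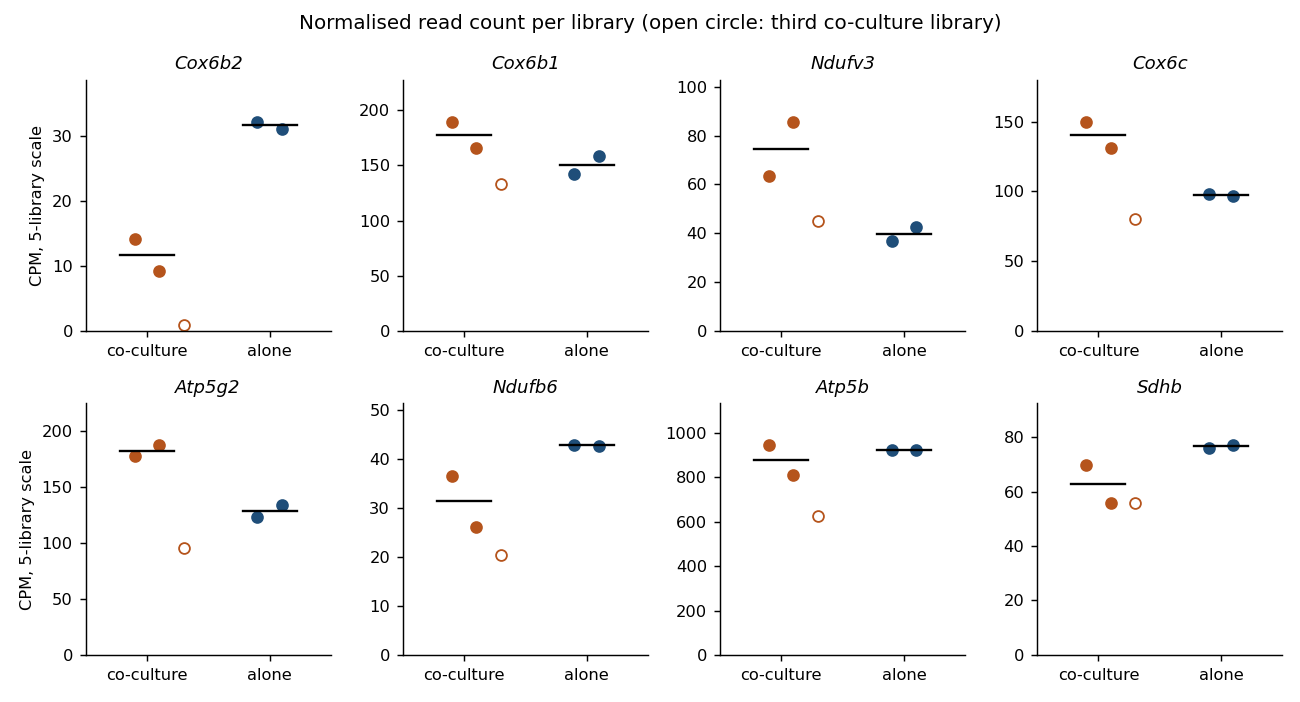
TMM-scaled CPM of 8 members in every library, on the joint scale of all 5 libraries, with M9 and M10 as filled and the third library as open circles on the left of each panel, organoids alone on the right, and bars at the means of M9 with M10 and of M11 with M12. Cox6b2 is lower in all co-culture libraries, whereas for Ndufv3, Cox6c and Atp5g2 the third library lies below M9 and M10, and for Cox6c and Atp5g2 also below organoids alone.

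Other restricted forms of complex IV were at or near 0. Cox4i2, the lung and hypoxia-responsive form of Cox4i1, had 1 and 3 counts in M9 and M10, 0 and 3 counts in M11 and M12, and 0 in the third library. Ndufa4l2, a HIF-induced paralog of Ndufa4, had 1 and 0 counts in co-culture, 0 and 5 counts in organoids alone, and 0 in the third library. The muscle form Cox6a2 and the testis forms Cox7b2 and Cox8c had 0 counts in all 5 libraries, and Cox8b, a heart and muscle form, had a single count, in M12. Zero counts allow up to 0.043 CPM in M9 and M10 together, 0.051 CPM in the third library and 0.0539 CPM in M11 and M12 together (a floor of 3 counts). Cox7a1, the heart and muscle form, had 53 and 81 counts in M9 and M10 against 27 and 22 counts in M11 and M12, a log2 fold change of 1.15 ± 0.48 (SE) and an adjusted p of 0.297 by edgeR. The third library, with 42 counts of Cox7a1, lay below organoids alone by 0.32 log2 units.

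The general forms were abundant. Per length, in TPM computed from counts and GENCODE exon lengths, Cox8a, Cox6a1 and Cox4i1 reached 937, 857 and 726 TPM in co-culture against 699, 748 and 742 TPM in organoids alone. Cox4i1, the general form of subunit IV, was level, at 236 and 236 CPM in co-culture and 220 and 248 CPM in organoids alone. Cox6c, a small inner-membrane subunit, had 147 and 126 CPM in M9 and M10 against 95.7 and 94.2 CPM in organoids alone. Its groups did not overlap, with a log2 fold change of 0.52 ± 0.15 (SE) and an adjusted p of 0.161 by edgeR, and it was called when M10 was left out (log2 fold change 0.63). Cox6c shares 250 exonic bases with Vps13b on the opposite strand. Cox7c and Cox8a had log2 fold changes of 0.47 and 0.46, the second called without M9 (0.64), and Ndufa4, now assigned to complex IV, had -0.16. The third co-culture library lay below organoids alone by 0.28 log2 units for Cox6c, and Cox7c and Cox8a were there at -0.03 and -0.06.

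Complex V makes ATP. Atp5b, the catalytic beta subunit and the nuclear member with the highest level per length, had 925 and 784 CPM in co-culture against 898 and 899 CPM in organoids alone. The alpha subunit Atp5a1 had 756 and 802 CPM in co-culture against 697 and 730 CPM in organoids alone. Their log2 fold changes were -0.07 ± 0.15 and 0.13 ± 0.14 (SE). Atp5e, the epsilon subunit of the central stalk, had 0.36. Subunit c, which forms the rotor ring, comes from 3 genes that encode the same mature protein. Atp5g2 had 174 and 181 CPM in co-culture against 120 and 131 CPM in organoids alone, without overlap, a log2 fold change of 0.50 ± 0.14 (SE) and an adjusted p of 0.159 by edgeR. Atp5g1 and Atp5g3 had 0.19 and -0.02. Of all subunit c counts, Atp5g2 made up 40.0% and 46.1% in M9 and M10, and 34.6% and 35.7% in M11 and M12. In the third co-culture library its share was 40.6%, although its level there was below organoids alone by 0.43 log2 units. These values leave out near-identical copies of Atp5g2, described below. The copies held 15.9% of its counts in the third library, against 5.91 to 10.8% in M9, M10, M11 and M12. With all 5 libraries its log2 fold change was 0.25, and 0.32 with copies added.

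Nuclear respiratory factor 1 (NRF1), the ETS factor GABPA and the receptor ESRRA are textbook regulators of these genes, so promoters were searched for their motifs. Of the nuclear members, 70 matched a RefSeq promoter, taken from 250 bases before to 50 bases after the start site. The letters GCATGCGC, the core of NRF1 sites, occurred in 10 of 70 members, 14.3%, against 3.05% of 27025 gene symbols. Promoter windows had the same length, a gene with several was scored if any held the letters, and base composition was not matched. In 5 of those 10 a further GC stood before the core and completed a palindrome, 7.14% against 1.07%. CCGGAAGT (GABPA) occurred in 7.14% against 4.31%, AAGGTCA (ESRRA) in 11.4% against 5.38%, and ACGTG (the core of HIF sites) in 25.7% against 21.8%. All were read on both strands. The palindrome is shown in the members in which it stood upstream of the start site and outside annotated exons for most of the window, with capitals for the letters of the core on either strand. They are Cox6a1 (chr5:115349086-115349145, minus strand) and Ndufa11 (chr17:56717677-56717736, plus strand), in transcript orientation.
Cox6a1: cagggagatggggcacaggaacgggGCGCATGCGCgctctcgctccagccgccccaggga
Ndufa11: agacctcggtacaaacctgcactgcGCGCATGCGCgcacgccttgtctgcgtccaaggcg

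The 5 members with the palindrome were Atp5g2, Atp5k, Cox6a1, Ndufa11 and Uqcrc1, with log2 fold changes of 0.50, 0.12, 0.24, 0.09 and -0.06, none of them called. A match describes the letters in the window and says nothing of binding.

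The 13 mitochondrially encoded genes took 2.16% and 2.07% of all counts in M9 and M10, against 2.58% and 2.06% in M11 and M12. The groups overlapped (exact two-sided permutation test over libraries, p = 1.0, where 2 against 2 cannot go below 0.333). The 89 nuclear members took 0.898% and 0.819% in co-culture against 0.796% and 0.818% in organoids alone, which did not overlap (exact permutation p = 0.333, the smallest possible). The ratio of mitochondrial to nuclear counts was 2.40 and 2.52 in co-culture and 3.24 and 2.52 in organoids alone.

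All 7 mitochondrial complex I genes had negative log2 fold changes, and the 3 complex IV genes positive ones, in M9 and M10. The mt-Nd genes lay between -0.54 for mt-Nd4l and -0.13 for mt-Nd3. mt-Nd2 had 1027 and 763 CPM in co-culture against 1389 and 1133 CPM in organoids alone. mt-Nd1 had 1851 and 1640 CPM in co-culture against 2283 and 1975 CPM in organoids alone. Both were lower without overlap, at -0.49 ± 0.21 and -0.29 ± 0.16 (SE), and neither was called. mt-Cytb, the complex III gene, was at -0.30, and mt-Atp6 and mt-Atp8 of complex V at -0.04 and -0.24. mt-Co1, the catalytic subunit of complex IV and the most abundant member per length, had 8483 and 10820 CPM in co-culture against 10741 and 7741 CPM in organoids alone, with overlap. mt-Co2 and mt-Co3 were at 0.18 and 0.21. Apart from the 3 mt-Co genes, each had its lowest value of the 4 libraries in M10: mt-Cytb was 2019 CPM there against 3146 CPM in M9. Without M9 mt-Nd2, mt-Nd4 and mt-Cytb were called lower, at -0.71, -0.73 and -0.64. Without M10 the median of the 13 genes was -0.02. Signs then changed for mt-Nd3, mt-Nd6 and mt-Atp6, at 0.21, 0.08 and 0.09, and for mt-Co1, at -0.12. The other mitochondrial genes kept their signs.

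Several mitochondrial genes have near-identical stretches in the nuclear genome, and the 4-library table divides their counts. A copy here is a gene model, not itself a member, that aligns to a member in the same orientation (blastn on GENCODE M21 transcripts). The alignment had 97% identity or more over at least 100 bases, and covered at least 90% of the copy or of the member. Each copy was assigned to the member it matched best. There were 34 copies of 23 members. One block on chromosome 1, from 24611535 to 24616197, holds unprocessed pseudogenes of mt-Nd4, mt-Nd4l, mt-Nd3, mt-Co3, mt-Atp6, mt-Co2 and part of mt-Co1. Gm10925, the copy of mt-Atp6, held 81.1% and 81.7% of the counts of the pair in M9 and M10, and 84.1% and 79.9% in M11 and M12. The copy of mt-Nd4l held 80.2 to 84.0% in the 4 libraries, that of mt-Co2 75.3 to 80.4%, that of mt-Nd3 59.1 to 65.6% and that of mt-Co3 41.6 to 46.3%. The nuclear pair Ndufb4 and Ndufb4c behaved alike, with 65.2% and 70.3% on the copy in co-culture and 64.2% and 69.0% in organoids alone. The level given for such a member is thus only a part of the reads that fit its sequence. With copies added, the log2 fold change was -0.38 for mt-Nd4l, -0.09 for mt-Atp6 and 0.07 for mt-Co2, and 0 members were called.

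Stretches of 60 bases from 3 such pairs show how close they are (GENCODE M21 transcripts, GRCm38). Positions are counted from the first base of each gene model, and capitals mark bases that differ within a pair. Over the whole length of the copy, Ndufb4 and Ndufb4c had 0 differences in 390 bases, mt-Atp6 and Gm10925 had 0 in 678, and mt-Co1 and Gm29216 had 6 in 492. All 6 fell within the first 13 bases of Gm29216, at the start of the stretch shown, and the remaining bases were identical.
Ndufb4, 260 to 319: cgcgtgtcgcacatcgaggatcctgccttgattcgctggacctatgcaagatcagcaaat
Ndufb4c, 166 to 225: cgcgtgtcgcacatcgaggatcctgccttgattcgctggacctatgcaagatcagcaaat
mt-Atp6, 310 to 369: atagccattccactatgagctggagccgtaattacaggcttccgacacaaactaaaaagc
Gm10925, 310 to 369: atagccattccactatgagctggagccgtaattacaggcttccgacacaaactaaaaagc
mt-Co1, 1054 to 1113: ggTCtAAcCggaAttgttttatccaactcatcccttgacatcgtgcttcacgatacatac
Gm29216, 1 to 60: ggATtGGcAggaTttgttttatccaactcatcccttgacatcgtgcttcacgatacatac

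**Figure D3:**
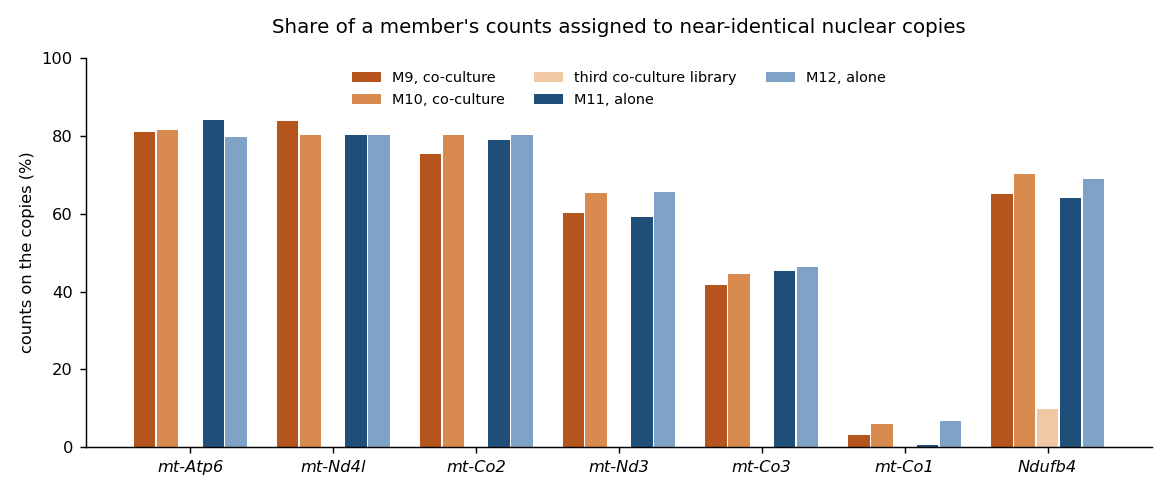
Percent of the counts of each member and its near-identical copies that were assigned to the copies (vertical axis, linear from 0), for 6 mitochondrial members and Ndufb4 in each library, co-culture left of organoids alone. The copies of mt-Atp6 and mt-Nd4l held 79.9 to 84.1% in M9, M10, M11 and M12, and 0% in the third co-culture library, whose table does not list the mitochondrial copies.

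In the third co-culture library mitochondrially encoded members lay mostly above organoids alone and nuclear members mostly below. These values share the libraries of organoids alone with the test above, and they have no test. Mitochondrially encoded members took 5.93% of its counts, and nuclear members 0.674%, a ratio of 8.80. Of the 13 mitochondrial members 12 were above organoids alone, with a median log2 difference of 1.19, and of 79 nuclear members 20 were above, with a median of -0.26, against 49.6% of all 14739 joined genes. The largest differences were those of mt-Atp6 (3.30), mt-Nd4l (3.11) and mt-Co2 (2.61), members whose counts the other table divides with copies. With copies added to all libraries these became 0.82, 0.77 and 0.31, the 13 genes ran from -0.78 to 1.54 with a median of 1.12, and the mitochondrial share was 2.76% and 2.74% in M9 and M10, 5.93% in the third library, and 3.23% and 2.70% in M11 and M12. mt-Nd6, the one protein gene on the other strand of the mitochondrial genome, was the exception: it had 180 CPM in the third library and was 0.78 log2 units below organoids alone. Ndufb4 was 1.22 log2 units above organoids alone as deposited and 0.21 below with its copy added. Among nuclear members Atp5e and Atp5d were lower by 1.17 and 1.02 log2 units, and complex I core genes had a median of -0.05. The cytosolic ribosome list had a median of -0.49 in this library, with 11 of 88 genes above.

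Genes around the chain were called in one list only. No gene passed edgeR's test among 43 assembly factors, 7 electron carriers and their partners, 20 citric acid cycle and pyruvate entry genes and 20 biogenesis regulators. Nor did any among 15 tested genes of mitochondrial RNA handling, 78 mitochondrial ribosome genes and 89 genes of the cytosolic ribosome list. Cox14 and Timmdc1, assembly factors of complex IV and complex I, had log2 fold changes of 0.68 ± 0.15 and 0.78 ± 0.19 (SE), with adjusted p of 0.0904 and 0.113 by edgeR. Idh2, the mitochondrial NADP-dependent isocitrate dehydrogenase, was at 0.68. Ppargc1a, a coactivator of mitochondrial biogenesis, had 1.60 and 2.69 CPM in co-culture against 5.65 and 3.22 CPM in organoids alone, a log2 fold change of -1.05 ± 0.48 (SE). Lrpprc, which stabilises mitochondrial mRNAs, was at -0.47 ± 0.19 (SE) with an adjusted p of 0.284, and Cycs, cytochrome c, was at -0.48 ± 0.30 (SE).

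Among 8 tested genes linked to hypoxia and to respiration or mitophagy, 2 were called higher, against 0.994% of all tested genes. Pdk1, the kinase that inactivates pyruvate dehydrogenase and limits pyruvate entry, had 78.9 and 187 CPM in co-culture against 19.9 and 18.2 CPM in organoids alone. Bnip3, a mitophagy receptor, had 39.5 and 106 CPM in co-culture against 6.35 and 4.34 CPM in organoids alone. Their log2 fold changes were 2.80 ± 0.42 and 3.77 ± 0.53 (SE), with adjusted p of 0.0374 and 0.0338 by edgeR. Both were also called by DESeq2, under the other scalings, with a filter of 1 CPM in 2 libraries and with near-identical copies added. Both had their higher co-culture value in M10, without which the log2 fold changes were 2.06 and 2.89. The calls were lost without M11 (adjusted p = 0.194 and 0.144), without M12 (0.255 and 0.229), by limma-voom (0.0668 and 0.0786), with all 5 libraries (0.416 and 0.506) and without a low-count filter (0.184 and 0.254). In the third co-culture library Pdk1 lay 0.79 log2 units above organoids alone and Bnip3 0.25 below. The other 6 genes of the list were not called, among them Mxi1 at 1.42 ± 0.39 and Higd1a at 0.47 ± 0.18 (SE). Cox4i2 and Ndufa4l2, members that respond to hypoxia in other tissues, stayed at 5 counts or fewer in each library.

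**Figure D4:**
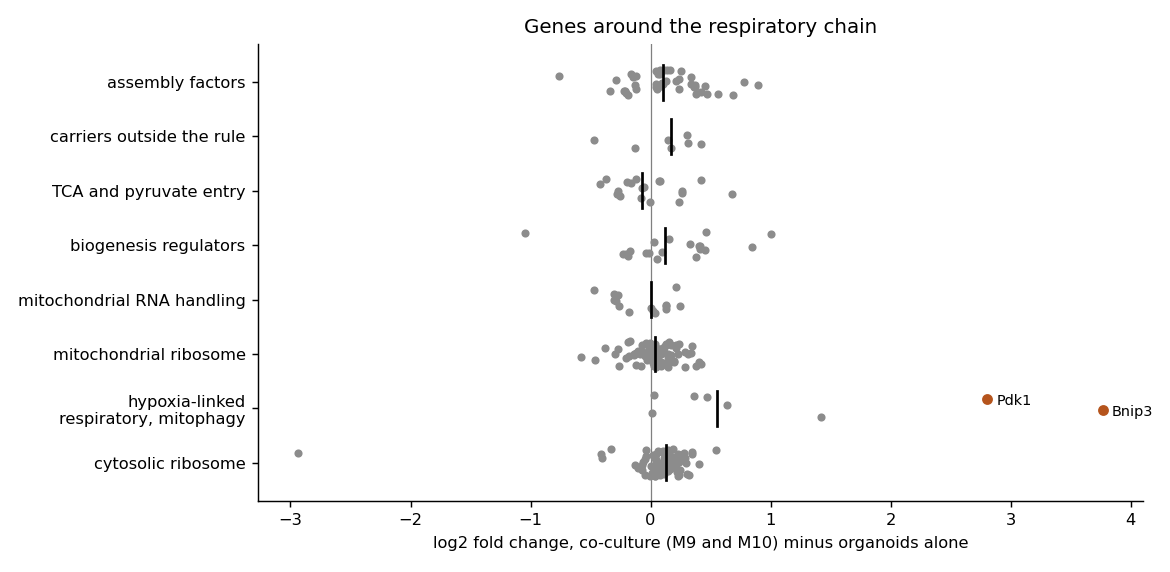
Each point is a tested gene of a list named on the vertical axis, at its log2 fold change of co-culture (M9 and M10) over organoids alone on the horizontal axis; orange points passed edgeR's test at an adjusted p of 0.05 and black bars are list medians. Pdk1 and Bnip3 lie at 2.80 and 3.77, and the point at -2.93 in the cytosolic ribosome row is the kinase Rps6ka6, which the symbol rule takes in.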

How the data were processed

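Total RNA of 5 libraries was extracted with a PicoPure kit; the libraries are stranded TruSeq total RNA with ribosomal RNA removed, per the labels' protocols. Tools named in the submitters' processing notes, without roles, are StringTie 2.1.3b, Bowtie2 2.3.4.1, HISAT2 2.1.0, FastQC 0.11.7 and Trimmomatic 0.38, and the builds are mm10 and GRCh37. How reads were counted, on which strand and with which annotation is not given in the sources used here. The authors deposited estimated counts per Ensembl gene for M9 to M12, per the file headers, in 73925 rows for 52029 genes. One row was kept per gene, and estimated counts were rounded. The third co-culture library has whole-number counts by RefSeq gene, deposited by the authors in a table of its own. It was joined by symbol for 30882 genes holding 97.8% of its counts. The tables' other 8 and 2 columns of values were not used.

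edgeR 4.0.16 (R 4.3.3) was used for the 4 libraries, with TMM scaling, filterByExpr, a robust quasi-likelihood test and Benjamini-Hochberg adjustment over all 15899 tested genes, and the step was tested on simulated data. Alternatives were other scalings and filters, DESeq2 1.42.0, limma-voom (limma 3.58.1), each library left out, all 5 libraries, and near-identical copies added (blastn 2.17.0), the last chosen after seeing the data. Fits with a library left out have 1 library in an arm, assumed to vary like the other group. CPM and log2 differences of the third library are scaled over all 5 libraries, with a prior count of 2, against the mean of M11 and M12. Levels per length use GENCODE M21 exon lengths (GRCm38). Binomial intervals of isoform shares, and floors, cover counting error only. Intervals of log2 fold changes use the standard error of the fit, which also includes the spread between libraries.

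The members and the gene lists were chosen with earlier results of these data known. Genes named are the mitochondrial and Sdh members, the 2 most abundant and the 2 highest and 2 lowest by fold change of complexes I, III, IV and V, the isoform families, and up to 3 genes by smallest p in each list; 2 genes that the rule takes are not reported here. Members named as holders of a motif, a near-identical copy or an extreme of a range, and Cox6c, Cox7c, Higd1a, Cycs and Ppargc1a where outside the rule, were added after their values were seen.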

Additional observations from a re-analysis of the deposited data

How the results depend on the processing

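No paired analysis was possible because the columns carry library numbers and no replicate numbers of the labels. With M9 and M10 against M11 and M12, 0 members were called by edgeR under other scalings, a filter of 1 CPM in 2 libraries and copies added, and 0 by limma-voom. DESeq2 called 1 member higher and 1 lower of 98, with 1329 genes called in all, and so did the fit with no low-count filter (1 and 1, 1404 genes), against 356 genes in the reported fit. Leaving out one library gave 0 to 2 members higher, 0 to 5 lower and 0 to 2619 genes in all, with the most without M9 (2619), then without M10 (1114), without M11 (50) and without M12 (0). The nuclear median then lay between 0.078 and 0.22, and the mitochondrial median between -0.45 and -0.025. The difference in the mitochondrial share, -0.21 percentage points, lay between -0.47 and 0.05, and that in the nuclear share, 0.051, between 0.012 and 0.091. With all 5 libraries 0 members and 2 genes were called, the nuclear median was 0.016 and the mitochondrial median 0.52, and the share differences were 1.06 and -0.010 points. With copies added as well, these counts were the same, at 2 genes, with medians of 0.016 and 0.33. Of 599 values of 43 named members under these alternatives, 542 kept direction and side of the threshold, 12 passed it newly and 45 changed sign and had not passed the test. The cause of these changes was not tested. The 43 are the tested members named by the rule above, so members added after their values were seen, such as Cox6c, are not in this tally.

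Signs changed with all 5 libraries, and with copies added too, for Cox4i1 (-0.17, -0.17), Cox7a2 (-0.021, -0.020), Sdhd (-0.035, -0.035), Uqcr11 (-0.083, -0.082), mt-Atp6 (1.97, 0.28), mt-Atp8 (0.40, 0.41), mt-Cytb (0.38, 0.38), mt-Nd1 (0.34, 0.34), mt-Nd2 (0.53, 0.53), mt-Nd4 (0.34, 0.33), mt-Nd4l (1.74, 0.11) and mt-Nd5 (0.40, 0.40), and without copies for mt-Nd3 (0.69). By total counts alone the signs of Cox4i1 (-0.032) and Sdhd (-0.0032) changed. Leaving out one library moved Atp5b between -0.18 and 0.046, Atp5g1 between -0.073 and 0.42, Atp5g3 between -0.13 and 0.092, Cox4i1 between -0.067 and 0.096, Cox5b-ps between -0.12 and 0.98, Ndufa4 between -0.52 and 0.14, Sdhd between -0.017 and 0.10, Uqcrb between -0.026 and 0.29, Uqcrc1 between -0.13 and 0.016, Uqcrh between -0.18 and 0.070, mt-Atp6 between -0.17 and 0.12, mt-Co1 between -0.16 and 0.33, mt-Nd3 between -0.56 and 0.21 and mt-Nd6 between -0.53 and 0.083. With 2 libraries a group, counting depth limits what can be said of the restricted isoforms at or near 0 counts.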
